A study of Mus musculus with 3 samples.

Results

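The genes described here are Igf1, which encodes insulin-like growth factor 1, and the IGF-binding proteins Igfbp2, Igfbp3, Igfbp4, Igfbp5, Igfbp6 and Igfbp7. They were taken by symbol, 7 of the 24119 genes in the deposited tables. The set was chosen with earlier results of these data known. Each of the 7 was present in all 3 tables with at least 1 read in every library. The study sequenced mRNA of pancreatic islets isolated from male mice of strain C57BL/6, with 3 groups and a single library for each. ND mice were kept on the diet labelled ND, which the labels do not spell out, and were gavaged with DMSO. HFD_DMSO mice were fed a high-fat diet and gavaged with DMSO, and HFD_CGP mice were fed a high-fat diet and gavaged with CGP 57380, a small-molecule inhibitor of the MNK kinases that phosphorylate the translation factor eIF4E. Gavage lasted 1 month in all groups. The label's protocol also names 4 months without saying whether this is the age of the mice or the time on diet, and how many animals went into a library is not stated. The comparison of HFD_DMSO with ND asks about diet, and that of HFD_CGP with HFD_DMSO about the inhibitor on the same diet.

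IGF-1 is a secreted peptide related to insulin that signals through the receptor Igf1r and supports growth and survival of many cells, islet cells among them. Liver makes most of the circulating peptide under the control of growth hormone, while fibroblasts, macrophages and other cells of a tissue make it locally. The IGF-binding proteins are secreted as well. They hold IGFs away from the receptor or carry and release them, and proteases such as the pappalysins free the ligand by cutting them.

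The libraries held 16297595 to 17623817 reads assigned to genes, and Ins1 and Ins2 together took 15.32% of the ND reads, 43.5% of the HFD_DMSO reads and 19.09% of the HFD_CGP reads. Since no group has a second library, the spread between animals was not measured: each test compares 2 libraries, and the intervals given below (95%) cover counting error only. A gene is named as called where its adjusted p in the authors' deposited table is under 0.05. That p rests on an assumed spread between animals, a biological coefficient of variation of 0.2, which the labels do not state and which was read from a recomputation of the test. The ND library also stood apart in base composition. From the lowest to the highest of 20 bins of transcript GC content, the median log2 fold change ran from -0.94 to 0.84 in HFD_DMSO against ND and from -0.80 to 0.85 in HFD_CGP against ND, but only from 0.07 to -0.05 between the high-fat libraries. Levels are given as CPM, reads per 10 to the power 6 reads of the library after edgeR's TMM scaling over all libraries together. The deposited fold changes were scaled within each pair, so ratios of CPM can differ from them. For the 7 genes other than Igfbp2, and for other genes where it ends a call against ND, the value with the median of the gene's GC bin taken off (the GC offset) is also given.

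The 250 bases before the RefSeq start sites of 4 of these genes (GRCm38.p6) are shown first: Igf1, Igfbp4 and Igfbp6, which were highest in the same library, and Igfbp3, which was highest in another. They lie at chr10:87860861-87861110 (plus strand) for Igf1, chr11:99040994-99041243 (plus strand) for Igfbp4, chr15:102143936-102144185 (plus strand) for Igfbp6 and chr11:7213924-7214173 (minus strand) for Igfbp3. Sequences are written 5′ to 3′ on the strand of the gene, and capitals mark matches, on either strand, to the TATA box (TATAAA), the CCAAT box (CCAAT), the GC box (GGGCGG), the AP-1 site (TGANTCA), the STAT5-type site (TTCNNNGAA) and the TEAD site (GGAATG).
Igf1: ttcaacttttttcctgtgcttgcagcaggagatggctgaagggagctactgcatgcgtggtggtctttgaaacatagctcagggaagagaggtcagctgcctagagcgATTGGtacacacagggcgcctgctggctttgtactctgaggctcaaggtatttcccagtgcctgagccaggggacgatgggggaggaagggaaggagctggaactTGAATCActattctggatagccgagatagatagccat
Igfbp4: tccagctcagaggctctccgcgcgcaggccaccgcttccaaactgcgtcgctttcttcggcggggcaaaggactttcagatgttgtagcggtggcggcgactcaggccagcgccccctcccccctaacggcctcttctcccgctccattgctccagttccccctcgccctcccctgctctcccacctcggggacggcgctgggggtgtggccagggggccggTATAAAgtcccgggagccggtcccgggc
Igfbp6: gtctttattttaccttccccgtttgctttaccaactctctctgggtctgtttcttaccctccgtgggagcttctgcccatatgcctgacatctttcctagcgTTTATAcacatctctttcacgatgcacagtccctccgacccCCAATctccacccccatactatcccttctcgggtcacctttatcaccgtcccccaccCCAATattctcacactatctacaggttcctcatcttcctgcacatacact
Igfbp3: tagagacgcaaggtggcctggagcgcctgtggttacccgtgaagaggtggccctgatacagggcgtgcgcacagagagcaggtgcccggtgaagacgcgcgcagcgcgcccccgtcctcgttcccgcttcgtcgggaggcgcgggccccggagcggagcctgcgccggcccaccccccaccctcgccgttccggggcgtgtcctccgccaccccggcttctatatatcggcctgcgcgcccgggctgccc

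Motifs were searched in windows of 300 bases, from 250 before to 50 after the start. All 7 genes had such a window, Igfbp2 a pair of them, among 32851 windows of 27025 genes. The Igf1 window held a CCAAT box and an AP-1 match, TGAATCA, which begins at position -37 from the start; 7.81% of all windows hold an AP-1 match. In Igfbp4 a TATA box begins at position -28, and 13.6% of all windows hold one. Igfbp6 had a TATA box on the other strand at position -148 and a CCAAT box at -107 and at -50 (37.4% of all windows hold a CCAAT box). No exact match to the letters of any of the 6 motifs was found in the Igfbp3 window, and near matches were not sought. No motif was found in all 3 of Igf1, Igfbp4 and Igfbp6. The RefSeq start used for Igf1 lies inside the gene as the deposited tables place it. That used for Igfbp6 lies ahead of its gene: the 250 bases end at 102144185, and the gene begins at 102144362. Windows of Igfbp3 (71.7% GC), Igfbp4 (71.3%) and Igfbp7 (73.3%) were richer in GC than the median window (52.7%), while those of Igf1 (52.3%) and Igfbp6 (49.7%) lay near it.

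Per kb of the deposited gene length, a single value for each gene whatever its transcripts, Igfbp7 was the most abundant of the 7 genes in all 3 libraries. Igfbp3 was the next. Igfbp7 had 3776 reads per kb in ND, 2213 in HFD_DMSO and 3825 in HFD_CGP. Igfbp3 had 371.9, 675.7 and 1648 reads per kb in the same order. The place after these belonged to Igfbp5 in ND (23.0 reads per kb) and to Igfbp4 in both high-fat libraries (132.7 in HFD_DMSO and 72.5 in HFD_CGP). Igf1 was sixth in every library, at 3.53, 25.0 and 8.18 reads per kb, and Igfbp2 was last. Neighbours in this order whose counting intervals overlapped were Igfbp4 and Igfbp6, Igfbp6 and Igf1, and Igf1 and Igfbp2 in ND, Igfbp5 and Igf1 in HFD_DMSO, and Igfbp6 and Igf1 in HFD_CGP.

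**Figure D1:**
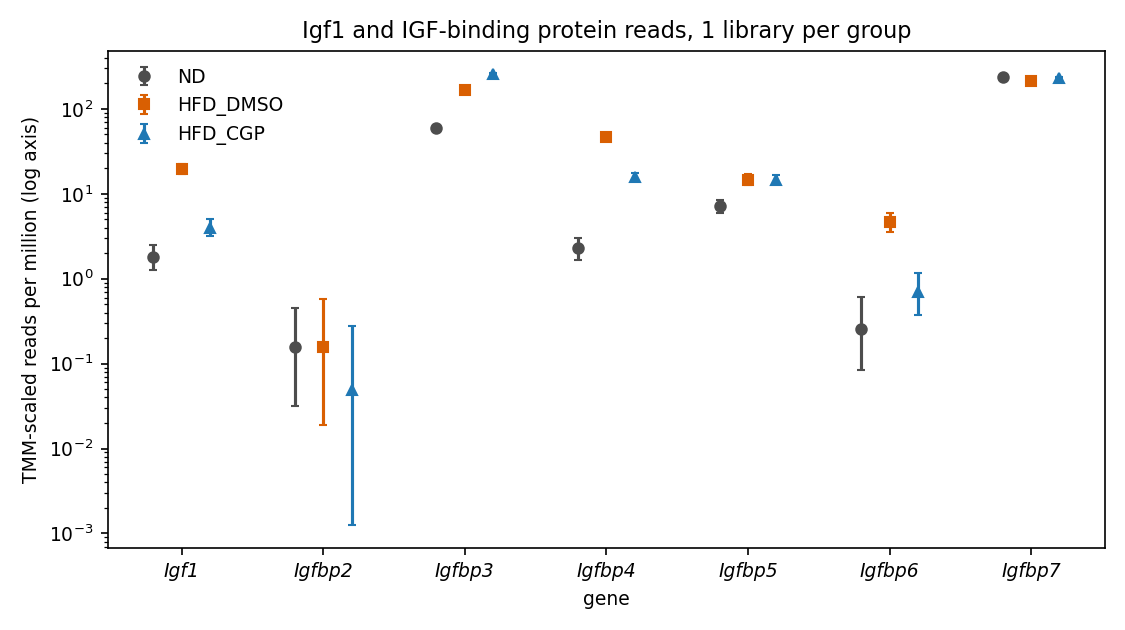
CPM of each gene in the 3 libraries after TMM scaling (log axis), with exact Poisson 95% intervals of the counts. Igf1, Igfbp4 and Igfbp6 are highest in HFD_DMSO, Igfbp3 is highest in HFD_CGP, and Igfbp7 lies between 211.7 and 236.7 in all 3.

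Reads of the 6 binding proteins, not divided by gene length, were dominated by Igfbp7 in ND and shared between Igfbp7 and Igfbp3 in the high-fat libraries. This measure does not depend on how libraries are scaled, but the GC difference of the ND library was not taken off. Igfbp7 took 77.1% of these reads in ND (Wilson interval 76.0 to 78.2), 47.6% in HFD_DMSO (46.3 to 48.9) and 44.4% in HFD_CGP (43.5 to 45.4). For Igfbp3 the shares were 19.7%, 37.6% and 49.5%. Igfbp4 rarely appeared in ND, at 0.743%, and took 10.4% in HFD_DMSO and 3.07% in HFD_CGP. The shares of Igfbp5 stayed between 2.33% and 3.31%. With reads divided by gene length, Igfbp7 kept the largest share in every library, at 90.2% in ND, 71.2% in HFD_DMSO and 68.2% in HFD_CGP. Igfbp3 then had 8.88%, 21.8% and 29.4%.

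**Figure D2:**
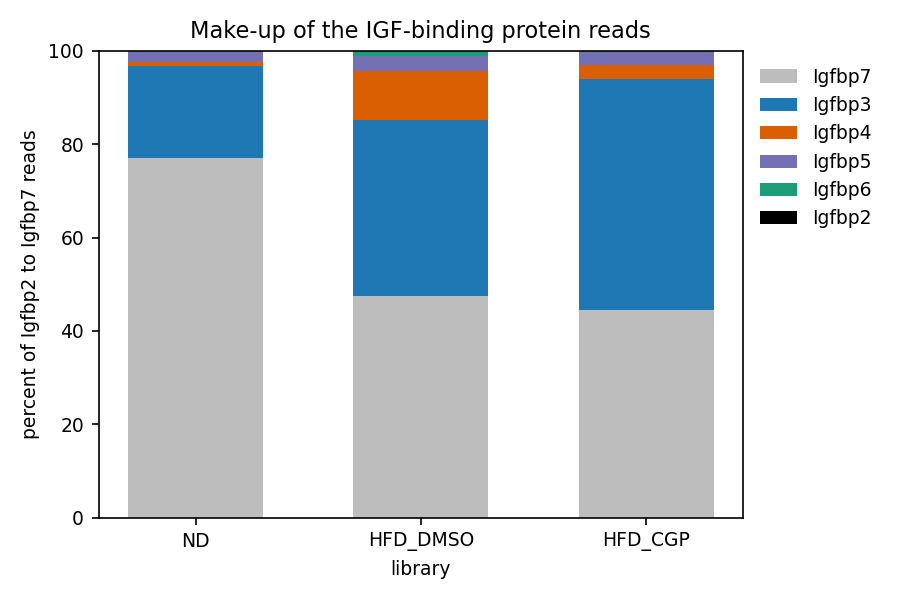
Share of each gene, in percent, among the reads of Igfbp2 to Igfbp7 in the 3 libraries (5919, 5623 and 10414 reads). Reads are not divided by gene length. The Igfbp7 part is 77.1% in ND and 44.4% in HFD_CGP, the Igfbp3 part 19.7% and 49.5%, and Igfbp4 is widest in HFD_DMSO at 10.4%.

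In HFD_DMSO against ND, 4 of the 7 genes were called higher and 0 lower: Igf1, Igfbp3, Igfbp4 and Igfbp6. Among all 22899 genes tested there, 25.8% were called, 12.6% higher and 13.2% lower. In HFD_CGP against HFD_DMSO, 3 of the 7 were called lower and 0 higher: Igf1, Igfbp4 and Igfbp6. Of 22208 genes there, 6.35% were called, 4.95% lower and 1.4% higher. In HFD_CGP against ND, 2 of the 7 were called higher and 0 lower: Igfbp3 and Igfbp4, where 8.93% of 23063 genes were called 4.57% higher and 4.36% lower. The 3 comparisons share libraries, so their values are set side by side only. Over the 6 genes other than Igfbp2 the median log2 fold change was 2.45, -0.86 and 1.27, against -0.05, 0.03 and 0.01 over all genes with at least 10 normalized counts. Had the spread been assumed at a coefficient of variation of 0.4, 3 genes would have been called in HFD_DMSO against ND and 0 in each of the other comparisons.

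**Figure D3:**
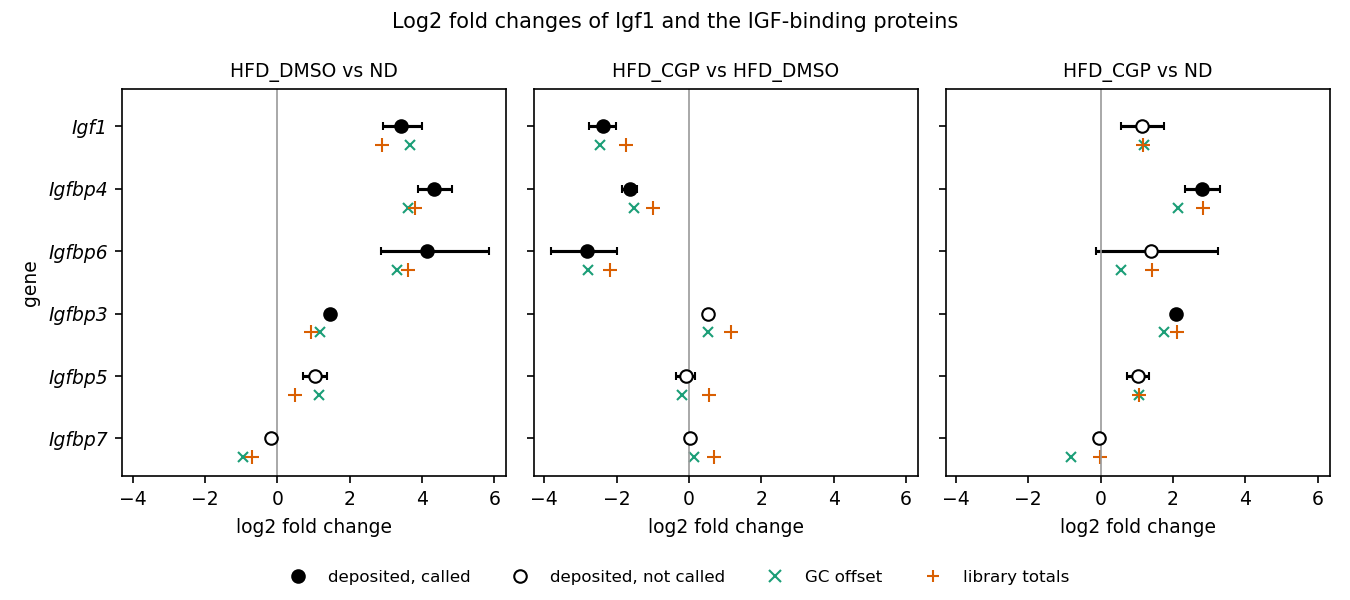
Log2 fold changes of 6 genes in the 3 comparisons, from the authors' deposited table, with the counting interval of the read ratio; filled circles are called. Crosses give the value after the GC offset and plus signs the value with library totals as the scale; Igfbp7 lies near 0 in the deposited values and at -0.95 in HFD_DMSO against ND with the GC offset.

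Igf1, the ligand, lies at chr10:87858265-87937042 on the plus strand (ENSMUSG00000020053). It had 35 reads in ND, 248 in HFD_DMSO and 81 in HFD_CGP, or 1.81, 19.6 and 4.01 scaled CPM. The HFD_DMSO library stood well above both others, and the counting intervals of the 3 did not overlap. In the authors' deposited table Igf1 was 10.8-fold higher in HFD_DMSO than in ND (log2 3.43, counting interval 2.92 to 3.99, edgeR exact test, Benjamini-Hochberg adjusted p = 1.17e-09). In HFD_CGP it was 5.20-fold lower than in HFD_DMSO (log2 -2.38, counting interval -2.76 to -2.01, adjusted p = 2.97e-05 in the authors' deposited table, edgeR exact test). Between HFD_CGP and ND the log2 difference of 1.14 was not called (interval 0.56 to 1.76). The GC offset left the 3 values at 3.66, -2.46 and 1.21. The antisense gene Igf1os overlaps Igf1 but shares no exon with it, and had 0, 3 and 0 reads.

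Igfbp4 binds IGFs and mostly withholds them from the receptor. The gene (chr11:99041244-99054392, plus strand, ENSMUSG00000017493) had 44 reads in ND, 586 in HFD_DMSO and 320 in HFD_CGP, or 2.28, 46.4 and 15.8 scaled CPM. Its level was thus lowest in ND by a wide margin, and the high-fat libraries differed from each other as well. Per the authors' deposited table the gene was 20.3-fold higher in HFD_DMSO than in ND (log2 4.34, counting interval 3.90 to 4.82, edgeR exact test, adjusted p = 2.86e-15), the largest deposited fold change of the 7 genes. In HFD_CGP its log2 fold change was -1.64 against HFD_DMSO (-1.84 to -1.44) and 2.79 against ND (2.34 to 3.29), both called. The GC offset gave 3.62, -1.52 and 2.15 in HFD_DMSO against ND, HFD_CGP against HFD_DMSO and HFD_CGP against ND, all called, and left Igf1 (3.66) with the larger value in the first. With library totals as the scale the change between the high-fat libraries was -0.99 and no longer called.

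Igfbp6, which prefers IGF-2 over IGF-1, had the fewest reads of the genes that were called. Per kb it lay above Igf1 in every library (4.5, 53.1 and 12.6 reads per kb), with overlapping intervals in ND and HFD_CGP. Igfbp6 lies at chr15:102144362-102149511 on the plus strand (ENSMUSG00000023046). Its reads numbered 5 in ND, 59 in HFD_DMSO and 14 in HFD_CGP, or 0.259, 4.67 and 0.693 scaled CPM. Only the HFD_DMSO library was clearly apart, since the intervals of the other two overlapped. The deposited log2 fold change, per the authors' deposited table, was 4.13 in HFD_DMSO against ND (counting interval 2.87 to 5.85) and -2.83 in HFD_CGP against HFD_DMSO (-3.80 to -1.98). In HFD_CGP against ND it was 1.40 with an interval of -0.13 to 3.25, and not called. Taking off the GC bin's median gave 3.31, -2.78 and 0.56. With only 5 reads in ND the size is loose: a prior count of 10 in each library gave 2.81 in HFD_DMSO against ND and 0.61 in HFD_CGP against ND.

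Markers of stellate cells and fibroblasts, cells that lie around and between islets, were high in the same library as Igf1, Igfbp4 and Igfbp6. The 12 markers summed to 30.4 scaled CPM in ND, 518.2 in HFD_DMSO and 109.0 in HFD_CGP, with none at 0 in any library. Of these 12, 11 were called higher in HFD_DMSO than in ND and all 12 lower in HFD_CGP than in HFD_DMSO. In HFD_CGP against ND 8 were called higher. These are 91.7%, 100% and 66.7% of the list, beside 25.8%, 6.35% and 8.93% over all genes. In bulk tissue fewer cells of a type and less RNA per cell cannot be told apart. Counted per 1000 reads of these markers in the same library, Igf1 had 59.6 reads in ND (41.1 to 83.9), 37.9 in HFD_DMSO (33.2 to 43.0) and 36.8 in HFD_CGP (29.1 to 46.0). Igfbp6 had 8.52, 9.01 and 6.36, with overlapping intervals. Igfbp4 had 75.0 (53.9 to 101.9), 89.5 (82.1 to 97.4) and 145.5 (129.0 to 163.6), so that its ratio to the markers was highest in HFD_CGP. Single markers ran from log2 0.91 (Col6a3) to 7.89 (Mmp2) in HFD_DMSO against ND, so the ratios depend on which markers are summed. The GC difference of the ND library was not taken off in these ratios, nor in those given below. The part of these cells in the values of the 3 genes was not tested.

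Other lists moved too. Macrophages are a known source of IGF-1, and their 10 markers summed to 186.8, 374.5 and 272.0 scaled CPM, with 4 called higher in HFD_DMSO than in ND (3 with the GC offset). Per 1000 macrophage reads Igf1 had 9.71 reads in ND (6.76 to 13.5), 52.4 in HFD_DMSO (46.0 to 59.6) and 14.8 in HFD_CGP (11.7 to 18.4). Single macrophage markers ran from log2 -0.28 (Adgre1) to 2.50 (Cd14) in HFD_DMSO against ND, so this ratio depends on the markers summed. The 10 duct markers summed to 560.4, 966.3 and 583.0, and 7 of them were highest in HFD_DMSO: 5 were called higher there than in ND, and 6 were called lower in HFD_CGP than in HFD_DMSO, where the list's median log2 fold change was -2.71. The 12 acinar markers summed to 12519, 3520 and 143.5. Of these, 8 were called lower in HFD_DMSO than in ND, but 2 transcription factors of acinar cells, Rbpjl (log2 4.19) and Ptf1a (3.80), were called higher there. In HFD_CGP 11 of the 12 were called lower than in HFD_DMSO, and Ptf1a had 0 reads. Rbpjl and Ptf1a are named after their values were seen. The part of any of these lists in the values of Igf1, Igfbp4 and Igfbp6 was not tested.

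**Figure D4:**
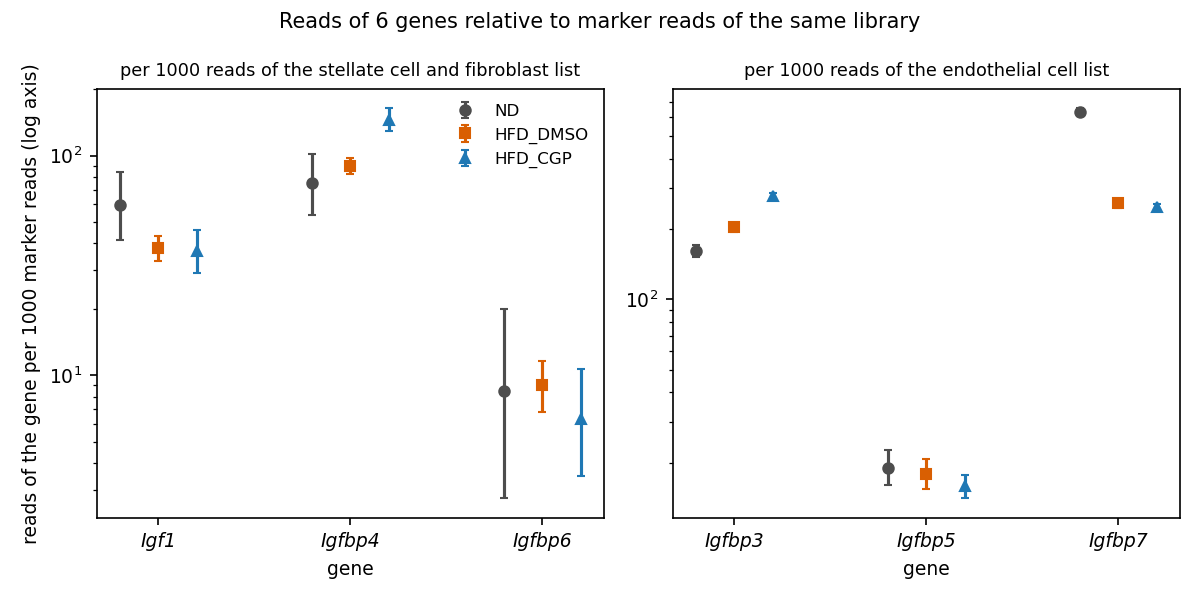
Reads of each gene per 1000 reads of the 12 stellate cell and fibroblast markers (left) or the 12 endothelial markers (right) of the same library (log axes), with 95% counting intervals. On the left Igf1 lies between 36.8 and 59.6, Igfbp6 lies between 6.36 and 9.01, and Igfbp4 is highest in HFD_CGP at 145.5; on the right Igfbp3 is at 160.8 in ND and 275.8 in HFD_CGP and Igfbp7 is highest in ND at 630.7.

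Igfbp3, the main carrier of IGFs in blood, had a different order from these. The gene lies at chr11:7206086-7213923 on the minus strand (ENSMUSG00000020427). It had 1164 reads in ND, 2115 in HFD_DMSO and 5157 in HFD_CGP, or 60.3, 167.4 and 255.4 scaled CPM. The inhibitor-treated library was the highest and ND the lowest, with no overlap of counting intervals. In the authors' deposited table Igfbp3 was 2.77-fold higher in HFD_DMSO than in ND (log2 1.47, counting interval 1.37 to 1.58, edgeR exact test, adjusted p = 0.00387) and 4.23-fold higher in HFD_CGP than in ND (log2 2.08, 1.99 to 2.18, adjusted p = 0.000129). The difference between the high-fat libraries, log2 0.52 (0.45 to 0.59), was larger than counting error and was not called. The GC offset gave 1.19 in HFD_DMSO against ND and 1.75 in HFD_CGP against ND, both called. With library totals as the scale the value was 0.93 and not called in HFD_DMSO against ND, and 1.17 and called in HFD_CGP against HFD_DMSO.

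The sum of 12 endothelial markers had the same order as Igfbp3, at 375.2, 823.7 and 926.0 scaled CPM, although only 5 of the 12 markers had it singly and none was at 0. Of these, 6 were called higher in HFD_DMSO than in ND, 7 higher in HFD_CGP than in ND, and 1, Cldn5, higher in HFD_CGP than in HFD_DMSO, a gene with 7, 3 and 34 reads that is named after its values were seen. With the GC offset 4 were called higher than ND in each high-fat library. Per 1000 endothelial reads Igfbp3 had 160.8 reads in ND (151.0 to 171.1), 203.2 in HFD_DMSO (193.9 to 213.0) and 275.8 in HFD_CGP (267.4 to 284.5). The order thus remained, over a narrower range than the scaled levels. Set against Igfbp7, its reads numbered 255.0, 790.7 and 1115 per 1000. In HFD_DMSO against ND single endothelial markers ran from log2 -0.60 (Cldn5) to 3.08 (Eng). Ratios to this list thus depend on which markers are summed. The part of endothelial cells in the Igfbp3 values was not tested.

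Igfbp5 binds extracellular matrix as well as IGFs. The gene (chr1:72857932-72874884, minus strand, ENSMUSG00000026185) had 138 reads in ND, 186 in HFD_DMSO and 297 in HFD_CGP, or 7.15, 14.7 and 14.7 scaled CPM. Both high-fat libraries were above ND, with intervals that overlapped each other. The log2 fold change was 1.04 against ND in each (counting intervals 0.72 to 1.37 for HFD_DMSO and 0.74 to 1.34 for HFD_CGP), and neither was called in the authors' deposited table (adjusted p = 0.0714 and 0.119, edgeR exact test). The GC offset gave 1.14, which was called, and 1.07, which was not. Between the high-fat libraries the change was -0.09 (-0.36 to 0.18), a sign that turned with library totals (0.56) and with totals that leave out insulin and acinar genes (0.04). Per 1000 reads of 11 pericyte and smooth muscle markers Igfbp5 had 33.0, 55.2 and 55.3 reads, and per 1000 endothelial reads 19.1, 17.9 and 15.9.

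Igfbp2, another carrier of IGFs, was barely detected. The gene (chr1:72824503-72852474, plus strand, ENSMUSG00000039323), close to Igfbp5 on chromosome 1, had 3 reads in ND, 2 in HFD_DMSO and a single one in HFD_CGP. Since even an observed 0 leaves room for 3 reads, no difference between libraries was detectable at this depth and no fold change is given.

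Igfbp7 differs from the others in structure and function: it binds IGFs weakly and is known as a protein of vessel walls. The gene lies at chr5:77349240-77408041 on the minus strand (ENSMUSG00000036256). It had 4565 reads in ND, 2675 in HFD_DMSO and 4625 in HFD_CGP, or 236.7, 211.7 and 229.1 scaled CPM. The deposited log2 fold changes were close to 0 in the authors' deposited table, at -0.16 (HFD_DMSO against ND), 0.02 (HFD_CGP against HFD_DMSO) and -0.05 (HFD_CGP against ND), with counting intervals of -0.23 to -0.09, -0.04 to 0.09 and -0.11 to 0.01. None was called, and the last 2 changed sign under other settings (-0.01 with a filter of 10 reads, 0.02 with totals that leave out insulin and acinar genes). After the GC offset the values against ND became -0.95 for HFD_DMSO and -0.83 for HFD_CGP, still not called. With library totals the value was -0.70 in HFD_DMSO against ND and 0.68 in HFD_CGP against HFD_DMSO. Relative to 1000 endothelial reads Igfbp7 had 630.7 reads in ND, 257.1 in HFD_DMSO and 247.4 in HFD_CGP. This ratio too depends on the markers summed: in HFD_DMSO against ND Pecam1 was at log2 -0.12 and Eng at 3.08. The part of endothelial cells in the Igfbp7 values was not tested. Exons of Igfbp7 overlap those of Polr2b on the other strand, a gene with 2529, 413 and 987 reads; the use of strand in counting is not stated by the labels, so reads of the shared exons may have been credited to either gene.

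Of 17 genes of the IGF axis, 16 were tested in HFD_DMSO against ND, of which 4 were called higher (Htra1, Adam12, Pappa and Lrp1) and 2 lower (Irs1 and Pappa2). In HFD_CGP against HFD_DMSO 1 of 17 was called higher (Irs1) and 2 lower (Htra1 and Adam12), and in HFD_CGP against ND 1 higher (Htra1) and 1 lower (Stc2, at 2 reads against 17). These are 37.5%, 17.6% and 11.8% of the genes tested, beside 25.8%, 6.35% and 8.93% over all genes. With the GC offset Pappa2 and Lrp1 lost their calls in the first comparison, and Stc2 lost its call in HFD_CGP against ND (-3.07 to -2.70). Adam12 and Stc2 are named after their values were seen. The list's median log2 fold change was 0.09, -0.05 and 0.06, against -0.05, 0.03 and 0.01 over all genes with at least 10 normalized counts.

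Igf1r, the receptor of IGF-1, had 786 reads in ND, 377 in HFD_DMSO and 819 in HFD_CGP. Its log2 fold change of -0.45 in HFD_DMSO against ND and of 0.35 in HFD_CGP against HFD_DMSO were not called. Igf2r, which clears IGF-2, had 1210, 485 and 1318 reads, and Insr, the insulin receptor, 716, 577 and 1404, again with no call in any comparison. Igf2, the second ligand, was listed with 2 reads in HFD_CGP and with none in the other libraries, where a count of 0 allows up to 0.156 scaled CPM in ND and 0.237 in HFD_DMSO. Irs1, an adaptor that carries the signal of the IGF-1 and insulin receptors, had 146, 13 and 103 reads. It was lowest in the library in which Igf1 was highest. In the authors' deposited table the log2 fold change was -2.87 in HFD_DMSO against ND and 2.21 in HFD_CGP against HFD_DMSO, both called.

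Among proteases that act on binding proteins, Htra1 had 3 reads in ND, 126 in HFD_DMSO and 50 in HFD_CGP. Its log2 fold change was 5.93, -2.10 and 3.94 in the 3 comparisons of the authors' deposited table, all called, the same order of libraries as Igf1 and Igfbp4. Pappa, the main protease of IGFBP-4, had 0 reads in ND, 9 in HFD_DMSO and 7 in HFD_CGP, so its level against ND rests on very few reads although the first difference was called. Pappa2, which cuts IGFBP-5, had 3563 reads in ND and 1066 in HFD_DMSO and was called lower (log2 -1.13; -0.70 and not called with the GC offset). Lrp1, a cell-surface receptor reported to bind IGFBP-3, was called higher in HFD_DMSO than in ND at 1.17, which fell to 0.46 and no call with the GC offset.

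The growth hormone axis, which drives Igf1 in liver, was tested as a list of 8 genes. In HFD_DMSO against ND 0 were called higher and 3 lower: Ghr, the growth hormone receptor (log2 -1.18), Socs2, a feedback inhibitor (-1.17), and Prlr, the prolactin receptor (-1.72). With the GC offset these became -0.66, -0.74 and -0.94, and none was called. None of the 7 genes tested was called in HFD_CGP against HFD_DMSO, and Prlr was called lower in HFD_CGP against ND (-1.40; -0.85 and not called with the GC offset). Over the 3 comparisons 37.5%, 0% and 14.3% of the genes tested were called, beside 25.8%, 6.35% and 8.93% over all genes. Ghr had 5506 reads in ND, 1592 in HFD_DMSO and 3907 in HFD_CGP. Its log2 fold change in HFD_CGP against HFD_DMSO was 0.53 and not called.

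Of 12 other genes whose proteins have an IGFBP-like domain, 4 were called higher and 0 lower in HFD_DMSO against ND: Htra3, Cyr61, Ctgf and Wisp2. In HFD_CGP against HFD_DMSO 3 of 11 were called lower (Htra3, Cyr61 and Wisp1). In HFD_CGP against ND 3 of 11 were called higher (Htra3, Cyr61 and Ctgf). These are 33.3%, 27.3% and 27.3% of the genes tested, beside 25.8%, 6.35% and 8.93% over all genes. Htra3, a secreted protease related to Htra1, had 3, 303 and 76 reads, with log2 fold changes of 7.20, -2.76 and 4.54 in the authors' deposited table. Cyr61, a matrix-associated protein of the CCN family, had 225, 1496 and 581 reads and log2 fold changes of 3.34, -2.13 and 1.30, the last of which became 1.05 and was not called with the GC offset. Ctgf, of the same family, had 48, 180 and 200 reads, and was called higher than ND in HFD_DMSO (2.51) and in HFD_CGP (1.99). Wisp1 and Wisp2 are named after their values were seen; Wisp2 had 0 reads in ND and 8 in HFD_DMSO, and Wisp1 11 in HFD_DMSO and 1 in HFD_CGP.

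**Figure D5:**
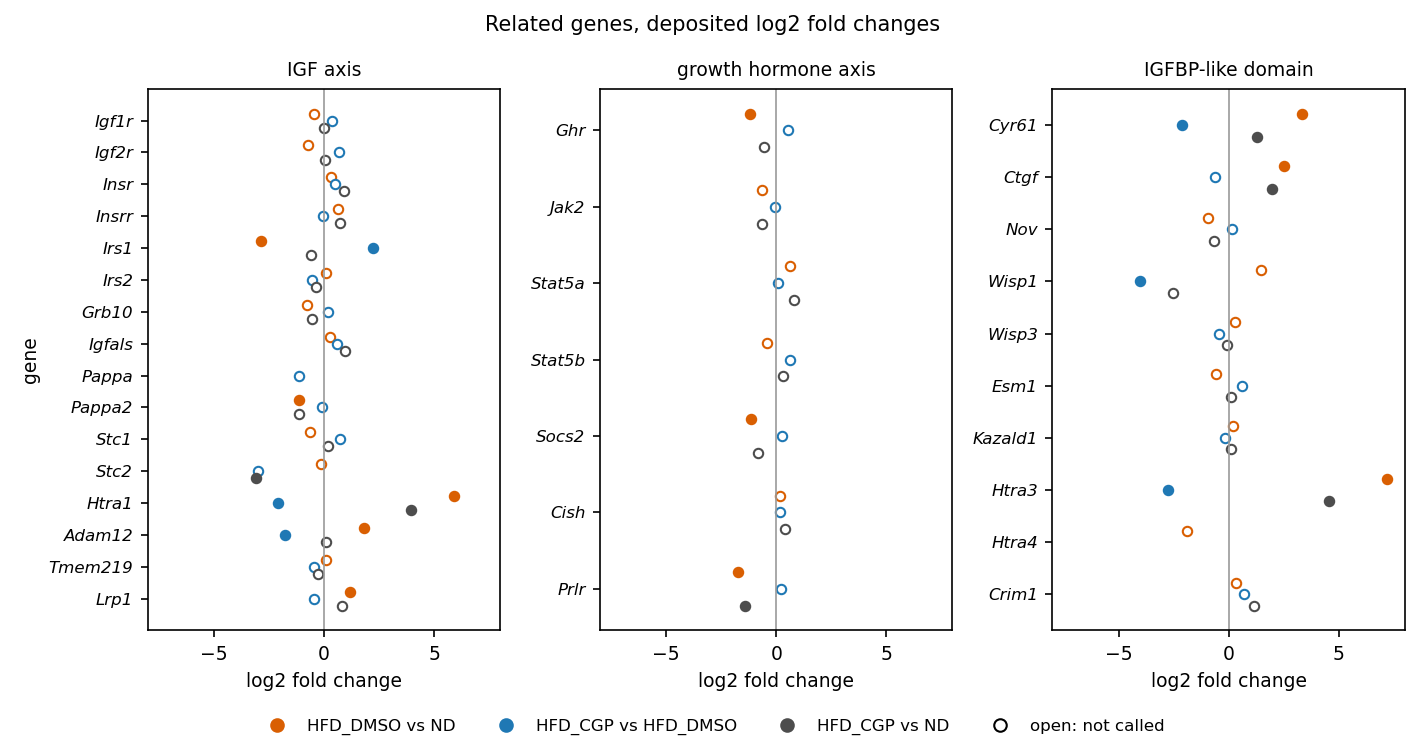
Log2 fold changes of genes of the IGF axis, the growth hormone axis and genes with an IGFBP-like domain in the 3 comparisons of the authors' deposited table; filled points are called. Comparisons with 0 reads in either library, or with at most 3 in both, are not drawn. Htra1, Htra3 and Cyr61 lie to the right against ND and to the left in HFD_CGP against HFD_DMSO, while Irs1 does the reverse.

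Genes most like each of the 7 other than Igfbp2 were sought by the distance between their pairs of log2 fold changes (HFD_DMSO against ND and HFD_CGP against HFD_DMSO) among 12113 or 12114 other protein-coding genes with at least 100 reads over the 3 libraries. Among those nearest to Igf1 were Eln (distance 0.093) and Col5a2 (0.13), with log2 pairs of 3.51 and -2.33, and 3.56 and -2.37. For Igfbp4 they were Tstd1 (0.089), Ildr2 (0.17) and Fbln2 (0.27), and for Igfbp6 Fgfr3 (0.15), Gas1 (0.17) and Loxl1 (0.25), of which Loxl1 is also 1 of the 12 fibroblast markers. Igfbp3 lay nearest to Chac1 (0.033), Zdhhc22 (0.041) and Cldn15 (0.074). Nearest to Igfbp5 were Fez2, Aldh4a1 and Safb, and to Igfbp7 Stradb, Polr1d and Ap3b2, at distances of at most 0.023 in the crowded middle of the distribution. These are likenesses over 3 libraries, and nothing beyond the values is read from them.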

How the data were processed

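TruSeq libraries came from 1 ug of Trizol-extracted total RNA, per the labels' protocols. DESeq2 1.10.1 is named in the submitters' processing notes; an aligner, a counter, a genome build or the use of strand is not given in the sources used here. The authors deposited 1 full table per pair of groups, with a normalized signal per group, a log2 fold change, a raw p-value and an adjusted p-value. Group signals were whole reads divided by a factor; dividing back gave 99.81% to 99.98% of values within 0.1 of a whole read, and tables that share a library differed by at most 14 reads. A count of 0 allows 3 reads, or 0.149 to 0.237 TMM-scaled CPM. edgeR 4.0.16's exact test on the recovered read counts, with TMM and a fixed dispersion of 0.04, gave log2 values within 0.00023 of the deposited ones and the same calls for every gene, so the deposited test was treated as this one. Fold changes and calls printed are the deposited ones; the p-values compare libraries, not animals. Intervals are exact binomial, Poisson or Wilson (scipy, R 4.3.3). Coordinates are those of the files, identical in GENCODE M21 (GRCm38) for all 7 genes.

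The members, gene lists and tests were chosen with earlier results of these data known. Named were all 7 members; called genes of the IGF axis, growth hormone axis and IGFBP-like domain lists that reached 100 normalized counts in one of the pair; Igf2, Igf1r, Igf2r, Insr, Ghr and Pappa always; and for each member the 3 protein-coding genes nearest in the pair of fold changes, except Igfbp2, for which no fold change is given. One of these nearest genes is not reported here. Alternatives were scaling by library totals, by DESeq2 1.42.0 size factors or by totals without insulin and acinar genes, a coefficient of variation of 0.4, a filter of 10 reads, a GC offset in 20 bins (with edgeR's likelihood ratio test, since the exact test takes no offset), that test alone, and a prior count of 10.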

Additional observations from a re-analysis of the deposited data

How the results depend on the processing

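For the 6 genes given a fold change, 111 of 126 alternative values with a test kept their direction and their side of the threshold. The coefficient of variation of 0.4 and the likelihood ratio test alone left the log2 values unchanged as printed. Direction could therefore not turn under those settings, and only the call could. All 18 values with a prior count of 10, which have no test, kept their direction. The median log2 fold change of these genes went from 2.45 to 1.91 (library totals) and 2.14 (prior count 10) in HFD_DMSO against ND, and from -0.86 to -0.21 with library totals in HFD_CGP against HFD_DMSO. At a coefficient of variation of 0.4 the number called fell from 3 to 0 and from 2 to 0 in the comparisons with HFD_CGP; Igf1, Igfbp4 and Igfbp6 remained called in HFD_DMSO against ND. The sign turned for Igfbp5 in HFD_CGP against HFD_DMSO (0.56 with library totals, 0.04 with totals without insulin and acinar genes) and for Igfbp7 (-0.01 with the filter of 10 reads in HFD_CGP against HFD_DMSO, 0.02 without insulin and acinar genes in HFD_CGP against ND), none of them called. Igfbp5 was called in HFD_DMSO against ND with the filter (1.08) and the GC offset (1.14). The cause of these changes was not tested. Over all genes, calls numbered 526, 171 and 81 at a coefficient of variation of 0.4 (from 5911, 1411 and 2060), 3888 with library totals in HFD_CGP against HFD_DMSO, split 3209 higher and 679 lower against 311 and 1100, and 1600 higher and 5677 lower in HFD_DMSO against ND, against 2888 and 3023. With library totals the median of all genes with at least 10 reads lay at -0.59 and 0.69 in these pairs. The GC offset, which used the likelihood ratio test, gave 1208 in HFD_CGP against ND, where that test without the offset gave 2703. Igfbp2 was dropped by the filter. No paired analysis was possible because each group has 1 library, and no replicate could be left out. Depth limits Igfbp2 and, in ND, Igfbp6.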
